A study of Homo sapiens with 12 samples.

Results

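The 10 genes described here are the 4 inhibitors of DNA binding (ID1, ID2, ID3 and ID4), the SMADs that restrain BMP signalling (SMAD6 and SMAD7), SMAD9, the decoy receptor BAMBI, the ligand BMP4 and the type I receptor BMPR1A. They were chosen by gene symbol, with earlier results of these data known, as 10 of the 56508 symbols measured by mRNA sequencing. All 10 were found and all 10 passed the filter on low values (at least 1 in at least 3 of 12 libraries), as did 15456 symbols in all. BMP4 passed only through its 3 libraries of treated H211, SMAD7 only through the 6 H211 libraries, and SMAD6 through the 6 H82 libraries and 1 of treated H211, so their place among the genes tested rests on the groups in which they were high.

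Bone morphogenetic proteins (BMPs) are secreted ligands that bring type I and type II receptors together. The type I receptor then phosphorylates the receptor SMADs SMAD1, SMAD5 and SMAD9, which enter the nucleus with SMAD4. ID genes are among the best known direct targets of these SMADs. ID proteins have a helix-loop-helix but no DNA-binding basic region, and by pairing with the E proteins TCF3, TCF4 and TCF12 they keep bHLH factors such as NEUROD1 from their target sites. SMAD6, SMAD7 and BAMBI are themselves induced by the pathway and act back on it.

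The study compared 4 groups of 3 libraries each. H82 and H211 are established human small cell lung cancer lines, labelled as lung and as wild type in genotype. Treated cultures received ORY-1001, an inhibitor of the histone demethylase LSD1 (gene KDM1A), at 1 µM, and control cultures received the vehicle, PBS; the sample labels give 7 days and the treatment protocol 10 days, and which applied is not settled. The groups are treated H211, treated H82, control H211 and control H82. Whether the replicates are separate cultures is not stated, and the p-values therefore cover library spread that may be technical. All levels are the deposited rescaled TPM, a measure of transcript abundance per length. Each "±" is an SD over 3 libraries.

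Column totals ran from 967415 to 1111988, depth is unknown, and libraries of a group correlated at 0.988 to 0.991 across genes, which are not independent replicates. KDM1A averaged 190 in treated H82 and 184 in control H82 (adjusted p = 0.354), and 188 in treated H211 and 185 in control H211 (adjusted p = 0.663); the drug acts on the protein, so this does not check the treatment. The lines matched the markers of their known subtypes, with NEUROD1 at 123 to 139 in H82 and POU2F3, the tuft-cell factor, at 246 to 285 in H211. Libraries did differ in transcripts of blood cells. The summed level of 10 blood-cell markers was 28.1 to 141 in treated H82 and 41.1 to 55.7 in control H82, and 28.6 to 47.4 in treated H211 and 43.4 to 135 in control H211. Treated H82 replicate 3, treated H211 replicate 3 and control H211 replicates 1 and 2 stood apart in these transcripts, and results on the members are also given without those 4 libraries, a fit that leaves 1 control library of H211 and assumes it to vary like the other groups. In H82 some myeloid transcripts went with the drug. MPO, a granulocyte enzyme, had 8.71, 8.55 and 24.3 in treated H82, against 0.085, 0.038 and 0.028 in control H82 (log2 3.66, adjusted p = 0.0141, and 0.0515 without treated H82 replicate 3). LYZ (lysozyme) had 16.0, 18.7 and 0.583, against 0.198, 0.327 and 0.364 (adjusted p = 0.135). TYROBP had 1.90, 2.91 and 0.439, against 0 in each control H82 library (adjusted p = 0.199). CD14 (adjusted p = 0.705) and PTPRC overlapped between treated and control H82. Treated H82 replicates 1 and 2, which stay in the fit without the 4 libraries, thus hold MPO at the level of treated H211 replicate 3 (8.57), which that fit leaves out. LYZ was 16.05 in that library. The globin HBG2 had 0, 0.12 and 53.0 in treated H82, against 23.9, 28.15 and 22.4 in control H82 (adjusted p = 0.160). In treated H211 it had 22.35, 16.8 and 0. Treated H82 replicates 1 and 2 were thus like treated H211 replicate 3 in LYZ and HBG2 too. Endothelial markers summed to at most 1.35 in any library. Of 6 fibroblast markers, decorin (DCN) was at 61.5 to 68.1 in treated H211 and 3.92 to 4.42 in control H211, while each of the other 5 reached at most 2.05 in H211. The part of these transcripts in the results below was not tested, and in H82 the fit without the 4 libraries does not remove the myeloid transcripts from the treated group.

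ID1 and ID3 were higher with ORY-1001 in both lines, ID2 was higher by a smaller step in both, and ID4 went opposite ways, lower in treated H82 and higher in treated H211. Because mRNA was measured in bulk, more RNA per cell and more cells with the RNA cannot be told apart. Windows of 300 bases around the annotated starts (250 before and 50 after) are shown for ID1, ID3 and ID4. ID2 and SMAD6, called higher in both lines as ID1 and ID3 were, are not shown. Capitals mark matches on either strand to 3 motifs. They are GGAGCC and the related GGCGCC, GC-rich elements bound by BMP SMADs, and the SMAD-binding element CAGAC. The windows come from RefSeq on GRCh38.p14, which held a window for all 10 members.
ID1, chr20:31605039-31605338, plus strand: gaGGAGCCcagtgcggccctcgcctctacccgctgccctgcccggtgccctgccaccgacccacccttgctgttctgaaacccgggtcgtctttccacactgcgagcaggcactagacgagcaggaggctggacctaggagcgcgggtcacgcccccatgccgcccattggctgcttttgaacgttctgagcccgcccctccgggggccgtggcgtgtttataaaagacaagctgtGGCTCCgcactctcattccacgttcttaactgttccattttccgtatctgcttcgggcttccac
ID3, chr1:23559452-23559751, minus strand: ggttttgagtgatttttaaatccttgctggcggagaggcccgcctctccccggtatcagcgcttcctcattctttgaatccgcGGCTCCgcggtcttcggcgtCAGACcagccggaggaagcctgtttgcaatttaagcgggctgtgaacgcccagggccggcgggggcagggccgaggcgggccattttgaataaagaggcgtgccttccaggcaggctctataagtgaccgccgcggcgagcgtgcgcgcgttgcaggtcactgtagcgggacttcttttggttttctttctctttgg
ID4, chr6:19837120-19837419, plus strand: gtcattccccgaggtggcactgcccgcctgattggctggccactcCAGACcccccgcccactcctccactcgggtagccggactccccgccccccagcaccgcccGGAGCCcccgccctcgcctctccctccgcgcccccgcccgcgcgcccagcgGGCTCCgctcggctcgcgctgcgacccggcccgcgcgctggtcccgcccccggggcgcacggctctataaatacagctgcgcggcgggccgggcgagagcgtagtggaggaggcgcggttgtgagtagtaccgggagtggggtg
GGAGCC was found 2 times in the ID1 window, 1 time in that of ID3 and 2 times in that of ID4, counting GGCTCC as its reverse complement. CAGAC was found 1 time each in the ID3 and ID4 windows, and GGCGCC in none of the 3. No match overlapped another. CANNTG, the E-box that bHLH dimers read, occurred 1 time in the ID4 window and in neither of the others. These short words are common: of 35116 windows of this length over 27305 genes, 36% held GGAGCC, 45.3% held CAGAC, 19.2% held GGCGCC and 68.7% held CANNTG. The ID4 window thus held GGAGCC as the ID1 and ID3 windows did. The ID2 window, not shown, held 0 matches to GGAGCC, 0 to CAGAC and 0 to GGCGCC, although ID2 was called higher in both lines. That of SMAD6, also not shown, held GGAGCC 3 times, and CAGAC and GGCGCC 0 times.

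ID1 (chr20:31605283-31606515, plus strand) had 134, 119 and 115 in treated H82, against 30.1, 32.1 and 31.5 in control H82. The groups did not overlap, and the means differed 3.93-fold (log2 fold change 1.94, SE 0.055, adjusted p = 1.36e-09). In H211 it had 328, 323 and 343 in treated cultures, against 183, 195 and 193 in control cultures. Again no treated library came near a control library; the difference was 1.74-fold (log2 0.80, SE 0.055, adjusted p = 2.64e-06). The lowest control H211 library lay above the highest treated H82 library.

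ID3 (chr1:23557918-23559794, minus strand) had 80.8, 73.1 and 72.6 in treated H82, against 28.3, 28.5 and 28.5 in control H82, 2.66-fold higher (log2 1.38, SE 0.050, adjusted p = 9.49e-09). Treated H211 had 248, 236 and 236, against 107, 108 and 118 in control H211, 2.16-fold higher (log2 1.11, SE 0.050, adjusted p = 8.30e-08). All treated libraries were above all control libraries in each line. ID1 and ID3 did not keep one proportion: the ratio of ID1 to ID3 was 1.62 ± 0.039 in treated H82 and 1.097 ± 0.033 in control H82, but 1.38 ± 0.068 in treated H211 and 1.72 ± 0.079 in control H211. The exact two-sided permutation p was 0.1 in each line, the smallest that 3 against 3 allows.

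ID2 (chr2:8678845-8684453, plus strand) had 11.2, 11.3 and 11.6 in treated H82, against 7.33, 7.45 and 5.77 in control H82, 1.66-fold higher (log2 0.66, SE 0.074, adjusted p = 3.58e-05). Treated H211 had 121, 117 and 120, against 92.2, 98.3 and 91.1 in control H211, 1.27-fold higher (log2 0.35, SE 0.074, adjusted p = 0.00816). This was the smallest called rise among the ID genes in either line, and the H211 call was lost without the 4 libraries (adjusted p = 0.188). ID2 is also the one member that shares exon bases with another annotated gene, 38 bases with ID2-AS1 on the opposite strand, and whether the libraries kept strand is not stated.

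ID4 (chr6:19837386-19840684, plus strand) had 1.91, 1.82 and 1.76 in treated H82, against 6.16, 5.73 and 6.17 in control H82, 3.29-fold lower (log2 -1.31, SE 0.059, adjusted p = 4.85e-08). Treated H211 had 50.4, 54.0 and 53.2, against 16.9, 18.3 and 17.1 in control H211, 3.02-fold higher (log2 1.54, SE 0.059, adjusted p = 1.84e-08). The groups were apart in each line, in opposite directions. ID1, ID3 and ID4 kept their calls and directions in both lines without the 4 libraries; in H211 their adjusted p was then 0.00425, 5.48e-04 and 4.93e-04.

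**Figure D1:**
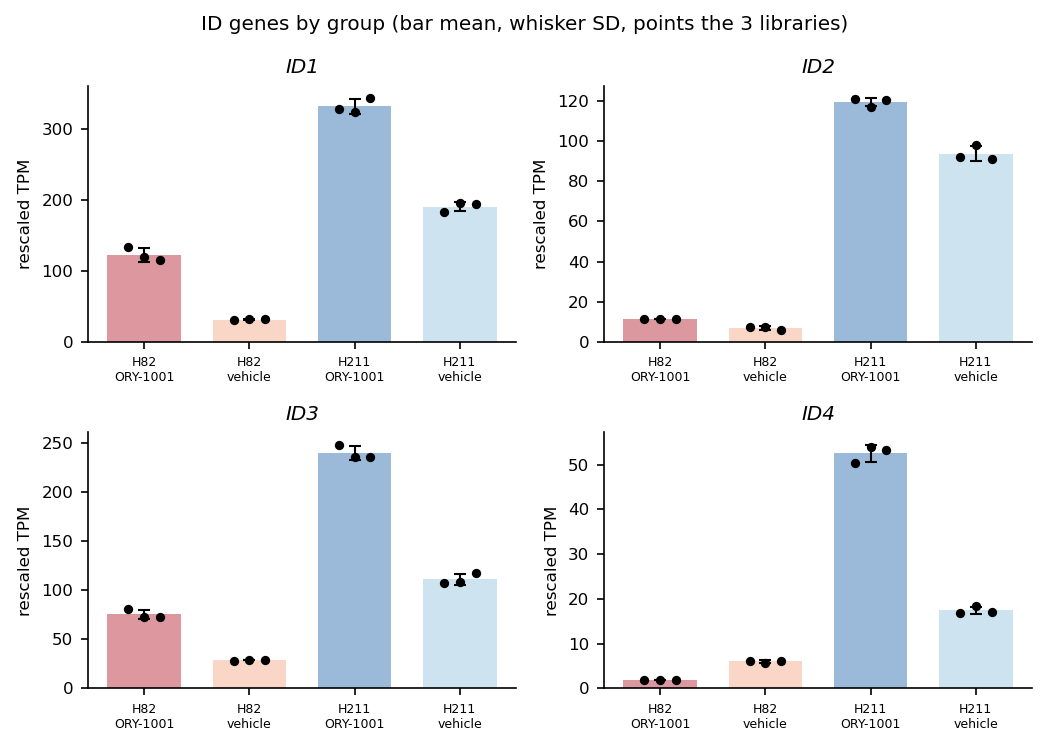
Levels of ID1 to ID4 (y axis, rescaled TPM) in the 4 groups; points are the 12 libraries, bars group means and whiskers SDs over 3 libraries. ID4 lies below its controls in treated H82 and above them in treated H211, while the other 3 lie above their controls in both lines.

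The 4 ID transcripts together came to 211.3 ± 14.4 in treated H82 and 72.5 ± 1.05 in control H82, a 2.91-fold difference, and to 743 ± 11.5 in treated H211 and 413 ± 11.8 in control H211, a 1.80-fold difference. Their makeup shifted too. ID1 made up 58.0 ± 0.80% of the sum in treated H82 and 43.0 ± 1.0% in control H82, and ID4 made up 0.867 ± 0.025% and 8.31 ± 0.47%. In H211 the ID4 share was 7.07 ± 0.33% in treated and 4.22 ± 0.14% in control cultures, the ID3 share 32.3 ± 0.94% and 26.9 ± 1.2%, and the ID2 share 16.1 ± 0.083% and 22.8 ± 0.91%. The ID1 share there was 44.6 ± 0.90% in treated and 46.1 ± 0.29% in control cultures.

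The E proteins that ID proteins bind did not follow one direction. TCF3 was not called in H82 (203 ± 13.4 treated, 200 ± 12.4 control; adjusted p = 0.84) or in H211 (255 ± 4.7 treated, 262 ± 11.6 control; adjusted p = 0.696). TCF12 was lower with the drug in H82, at 114 ± 9.58 treated and 160 ± 12.6 control (log2 -0.48, adjusted p = 1.78e-04). In H211 it was at 45.6 ± 1.69 treated and 55.0 ± 1.497 control (log2 -0.27, adjusted p = 0.0186), a call lost without treated H211 replicate 3 (0.065), control H211 replicate 1 (0.0657) or the 4 libraries (0.288). TCF4 was higher in treated H211, at 45.6 ± 1.74 against 32.8 ± 0.77 in control H211 (log2 0.46, adjusted p = 5.67e-04; 0.0796 without the 4 libraries), and was not called in H82 (23.9 ± 1.23 treated, 25.9 ± 2.28 control; adjusted p = 0.201). The 3 E proteins summed to 341 ± 20.7 in treated H82 and 386 ± 27.1 in control H82 (exact permutation p = 0.2), and to 346 ± 4.68 in treated H211 and 350 ± 12.9 in control H211 (exact permutation p = 0.8). ID transcripts per E-protein transcript were therefore 0.623 ± 0.078 in treated H82 and 0.189 ± 0.013 in control H82, and 2.15 ± 0.048 in treated H211 and 1.18 ± 0.074 in control H211, with no overlap in either line (exact permutation p = 0.1 in each).

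**Figure D2:**
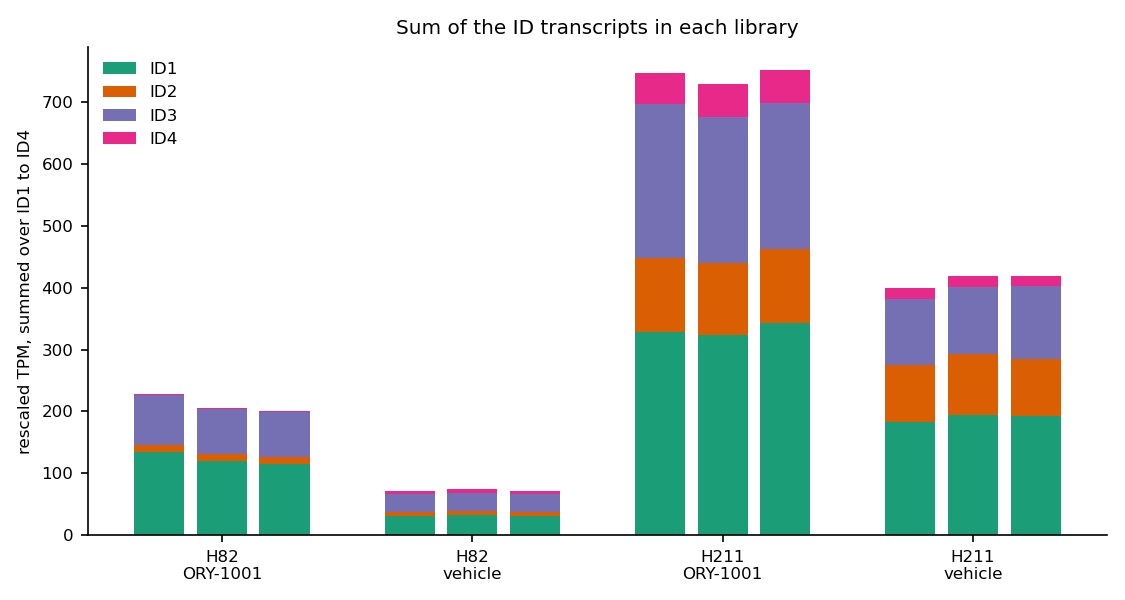
Stacked levels of ID1 to ID4 (y axis, rescaled TPM) in each of the 12 libraries, by line and treatment. The stacks reach 201 to 228 in treated H82 and 71.9 to 73.7 in control H82, and 730 to 752 in treated H211 and 399 to 419 in control H211; ID4 is the thin top layer, hardly seen in treated H82.

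SMAD6 (chr15:66702228-66782848, plus strand), which keeps receptor SMADs from SMAD4 and the type I receptor, had 6.22, 7.85 and 7.72 in treated H82, against 2.83, 2.45 and 2.97 in control H82, 2.64-fold higher (log2 1.14, SE 0.14, adjusted p = 6.26e-05). In H211 it was near the floor of the data, at 0.765, 0.582 and 1.27 in treated and 0.162, 0.195 and 0.288 in control cultures. These groups did not overlap and the test called them different (log2 0.61 on the log2(value + 1) scale, adjusted p = 0.0108), but the call was lost with a pseudocount of 5 (0.0712) and without the 4 libraries (0.314). In H82 its fold was larger than that of BAMBI, the other feedback gene called there.

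SMAD7 (chr18:48919853-48952052, minus strand), which recruits ubiquitin ligases to BMP and TGF-beta type I receptors, showed no such step in H82, where it had 0.746, 0.863 and 0.761 in treated and 0.966, 0.594 and 0.687 in control cultures (log2 0.04, 95% interval -0.18 to 0.26, adjusted p = 0.804). In H211 it had 2.57, 2.72 and 2.92 in treated and 1.32, 1.59 and 1.39 in control cultures, 1.91-fold higher (log2 0.62, SE 0.10, adjusted p = 0.00156; 0.109 without the 4 libraries). The H82 groups overlapped and the H211 groups did not.

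SMAD9 (chr13:36844831-36920765, minus strand), a receptor SMAD of the BMP branch, had 45.7, 50.3 and 50.6 in treated H82, against 43.2, 37.7 and 39.0 in control H82. The groups did not overlap, yet the difference missed the threshold (log2 0.28, SE 0.13, adjusted p = 0.0909; 0.00945 without treated H211 replicate 3, which is not in this contrast but sets the shared spread, and 0.0486 without the 4 libraries). In H211 the values overlapped, at 8.66, 7.67 and 5.37 in treated and 7.69, 7.24 and 8.12 in control cultures (log2 -0.10, 95% interval -0.37 to 0.18, adjusted p = 0.657).

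BAMBI (chr10:28677342-28682939, plus strand), a transmembrane pseudoreceptor without a kinase domain, had 4.28, 3.24 and 3.78 in treated H82, against 2.00, 2.79 and 2.11 in control H82, 1.64-fold higher (log2 0.53, SE 0.14, adjusted p = 0.00806). In H211 it had 3.50, 2.49 and 2.83 in treated and 2.97, 3.62 and 3.84 in control cultures, with overlap (log2 -0.19, 95% interval -0.48 to 0.11, adjusted p = 0.388).

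BMP4 (chr14:53949736-53958761, minus strand) was the only ligand among the members and was scarce. H82 had 0.216, 0.084 and 0.231 in treated and 0.152, 0.167 and 0.314 in control cultures (log2 -0.04, adjusted p = 0.823). H211 had 1.29, 1.42 and 1.04 in treated and 0.625, 0.626 and 0.984 in control cultures, and the groups were apart (a log2 difference of 0.37). BMP4 reached 1 in the 3 treated H211 libraries alone and passed the filter only through them. Its difference in H211 is therefore a description with no test. BMPR1A (chr10:86756601-86932838, plus strand), the receptor for BMP2 and BMP4, had 12.9, 12.2 and 12.3 in treated H82 against 11.2, 12.4 and 11.7 in control H82, and 7.93, 9.86 and 8.47 in treated H211 against 8.004, 9.30 and 6.64 in control H211. The groups overlapped in both lines (log2 0.08, 95% interval -0.15 to 0.31, and log2 0.13, -0.11 to 0.36). Its pseudogenes BMPR1AP1 and BMPR1AP2 could share reads with it, and how such reads were divided is not known.

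Counted together, 6 of the 10 members were called in H82 (5 higher, 1 lower), where 43% of all genes tested were called (19.1% higher, 23.9% lower), and their median log2 fold change was 0.41, against -0.02 over all genes. The 3 treated and 3 control libraries did not overlap for 7 members, and for 52.3% of all genes. In H211 6 were called, all higher, where 18.6% of all genes were called (8.95% higher, 9.61% lower), with a median of 0.49, against -0.0021 over all genes. The libraries did not overlap for 7 members, and for 35.4% of all genes. These 7 and the median include BMP4, which passed the filter only through treated H211, so its part in them supports nothing. Because the members were chosen with earlier results of these data known, their counts and medians beside all genes are a description. Without the 4 libraries the H211 count was 3. The direction split of all calls in H211 depended on scaling: 48.2% of calls were higher as deposited, 35% with libraries set to equal totals and 32.3% with totals that leave out mitochondrial genes; the 6 members kept their direction under both.

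**Figure D3:**
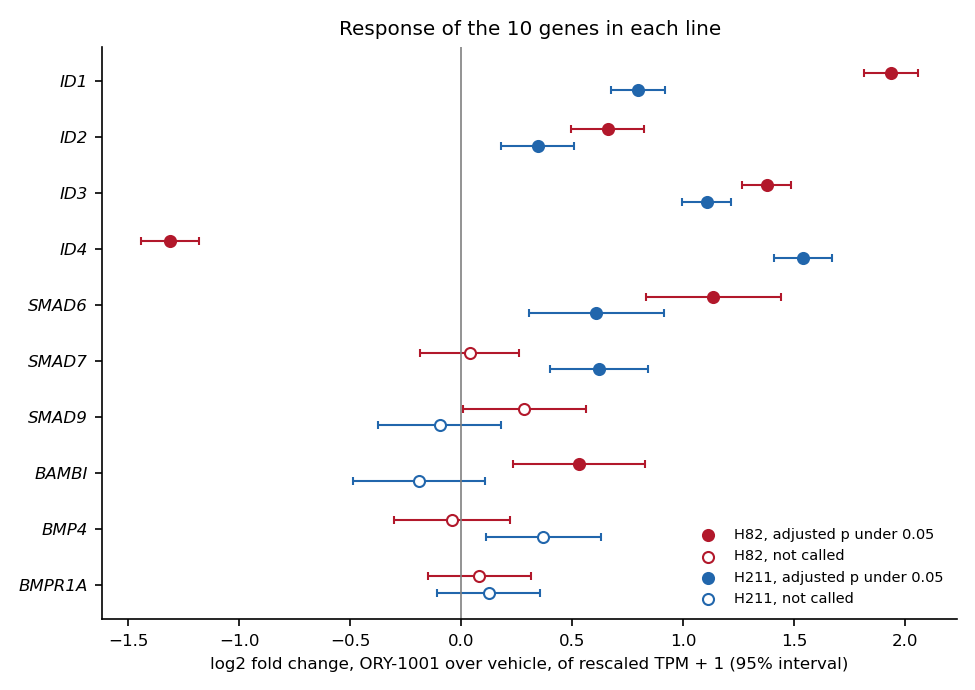
Log2 fold change (ORY-1001 over control, log2(value + 1) scale) of the 10 members in each line, with 95% intervals; filled points were called at an adjusted p under 0.05. ID4 is the one member called in opposite directions; ID1, ID2, ID3 and SMAD6 are called higher in both lines.

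The responses of the lines were compared directly as the H211 response minus the H82 response. That difference was called for 6 of 10 members, against 32.1% of all genes tested: 2 were positive (17.8% of all genes) and 4 negative (14.3%). It was largest for ID4 (log2 2.85, SE 0.083, adjusted p = 4.98e-09), the gene called in opposite directions. ID1 rose less in H211 than in H82 (-1.14, SE 0.078, adjusted p = 2.34e-06), and ID3 also (-0.27, SE 0.071, adjusted p = 0.0136; 0.0528 with a pseudocount of 5). For ID2 (-0.31, SE 0.11, adjusted p = 0.0402) the call was lost with a pseudocount of 5, with no filter, without a variance trend, without the 4 libraries and in 9 of the 12 fits that left out a library (0.0516 to 0.0897). The SMAD7 response was larger in H211 (0.58, SE 0.14, adjusted p = 0.00951; 0.104 without the 4 libraries), and BAMBI was called higher only in H82 (-0.72, SE 0.19, adjusted p = 0.0145; 0.0913 without the 4 libraries). For SMAD6 (-0.53, adjusted p = 0.0609), SMAD9 (-0.38, 0.127), BMP4 (0.41, 0.0834) and BMPR1A (0.04, 0.856) the difference was not called. The SMAD6 difference turned positive with a pseudocount of 0.1 (0.22, adjusted p = 0.698). SMAD7 and BMP4 were under 1 in all H82 libraries, where fold changes are understated on the log2(value + 1) scale. SMAD7 passed the filter only through H211, so its larger response there and its part in these counts are a description and support nothing. BMP4 passed the filter only through treated H211, so its value here is also a description.

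H211 and H82 also differed in these genes without the drug. Control H211 against control H82 was called for 10 of 10 members, where 80.5% of all genes were called, so the count says little about the members; 7 were higher in H211 (39.7% of all genes) and 3 lower (40.8%), and the libraries of none overlapped, as for 81.7% of all genes. ID2 stood 13.7-fold higher in control H211, ID1 6.10-fold, ID3 3.90-fold and ID4 2.89-fold, and the 4-gene sum 5.69-fold (6.46-fold with totals without mitochondrial genes). BAMBI was 1.51-fold higher in control H211, and SMAD9 was 5.20-fold and BMPR1A 1.47-fold lower in control H211 than in control H82. SMAD7 (1.91-fold higher), BMP4 (3.53-fold higher) and SMAD6 (12.8-fold lower) differed in the direction of the libraries through which they passed the filter, so their part in these counts is a description and supports nothing. With totals that leave out mitochondrial genes, the median of all genes in this contrast was 0.14 on the log2 scale, and all 10 members kept their direction and call.

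Treated H211 against treated H82 was called for 9 of 10 members, where 80.2% of all genes were called. Of these, 6 were higher in H211 (39.7% of all genes) and 3 lower (40.6%), and 9 did not overlap, as for 81% of all genes. SMAD7, BMP4 and SMAD6 differed in the direction of the libraries through which they passed the filter. Their part in these counts is a description and supports nothing. ID4 was 28.7-fold higher in treated H211, ID2 10.5-fold, ID3 3.18-fold and ID1 2.70-fold; for ID4 the ratio was wider than in the control cultures, and for ID1, ID2 and ID3 it was narrower. BAMBI missed the threshold (adjusted p = 0.0799), with values of 2.94 ± 0.52 in treated H211 and 3.76 ± 0.52 in treated H82. Ordered by mean, ID1 and ID3 run treated H211, control H211, treated H82 and control H82, with no overlap between neighbours, and ID2 runs the same way. ID4 runs treated H211, control H211, control H82 and treated H82, again with no overlap.

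**Figure D4:**
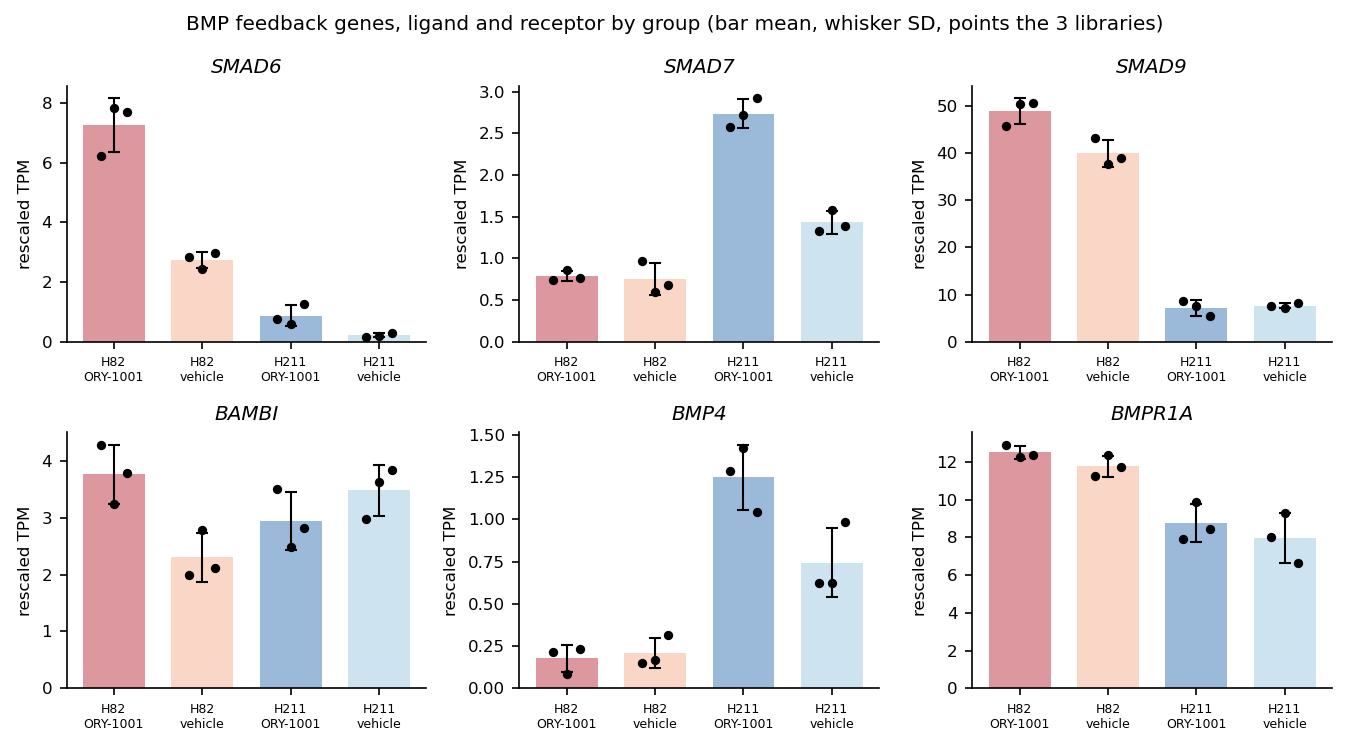
Levels of SMAD6, SMAD7, SMAD9, BAMBI, BMP4 and BMPR1A (y axis, rescaled TPM) in the 4 groups; points are the 12 libraries, bars group means and whiskers SDs over 3 libraries. SMAD6 and SMAD9 lie higher in H82 and SMAD7 and BMP4 higher in H211, under either condition.

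Genes with a like pattern over the 4 group means were found by the root mean square distance of centred log2(value + 1) means, over 11359 genes with a mean of at least 5 in a group; this is a description of 4 points. Nearest to ID1 were USP18 (distance 0.20 log2 units), which removes the ubiquitin-like protein ISG15, AL669918.1 (0.27) and IFI6 (0.28), an interferon-induced gene. Nearest to ID3 were SP110 (0.18), a nuclear body protein, IFI6 (0.23) and SLC38A6 (0.28). USP18 averaged 13.95 in treated H82 and 2.16 in control H82, and 36.8 in treated H211 and 26.3 in control H211. Nearest to ID2 were an immunoglobulin kappa variable gene outside the kappa locus (0.13), CASP8 (0.14), the initiator caspase of death receptors, and HOXC5 (0.14), a homeobox factor. Nearest to ID4 were TOX3 (0.29), LSAMP (0.30) and DCLK2 (0.34), and TOX3 averaged 1.36 in treated H82 and 3.90 in control H82, and 36.0 in treated H211 and 20.04 in control H211. ID1 and ID3 were 0.25 apart from each other by the same measure. Several of the nearest genes were near 0 in H82. SP110 averaged 1.59 in treated H82 and 0.065 in control H82, and 7.77 in treated H211 and 2.01 in control H211. AL669918.1 averaged 0.171 in control H82. The kappa gene averaged 0.397 in treated and 0.114 in control H82, and DCLK2 0.212 and 0.907. Near 0 the log2(value + 1) scale shrinks fold changes, so a small distance need not mean a like fold.

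Of 58 other genes of the BMP pathway, all were in the table and 38 were tested. This list too was chosen with earlier results of these data known. In H82 5 were called higher and 12 lower (44.7%, close to the 43% of all genes), with a median log2 fold change of -0.09. In H211 6 were higher and 7 lower (34.2%, against 18.6% of all genes), with a median of 0.02. The higher genes include HAMP in H82 and SOSTDC1 in H211. Each passed the filter only through the treated libraries of that line, so its part in the count supports nothing. The H211 count was 8 without treated H211 replicate 1 and 8 without treated H211 replicate 3, and 4 without the 4 libraries. The signalling SMADs other than SMAD9 (SMAD1, SMAD5, SMAD4) gave 2 of 3 lower in H82 and 0 of 3 called in H211. Of 7 tested intracellular negative regulators, 1 was higher and 2 lower in H82, and 0 higher and 3 lower in H211.

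Among ligands, 0 of 4 tested were called in H82 and 1 of 4 in H211, where BMP2 was at 27.7 ± 2.17 in treated and 11.4 ± 0.21 in control cultures (log2 1.21, adjusted p = 1.27e-06), far above BMP4. Among 7 tested receptors and coreceptors, BMPR2, the type II receptor, was lower in treated H82 (8.43 ± 0.85 treated, 13.97 ± 0.93 control; log2 -0.67, adjusted p = 1.75e-04). ACVR1, another type I receptor, was lower with the drug in both lines, at 5.92 ± 0.34 in treated and 8.02 ± 1.33 in control H82 (log2 -0.37, adjusted p = 0.0202) and at 3.47 ± 0.17 in treated and 7.23 ± 0.98 in control H211 (log2 -0.87, adjusted p = 3.48e-04; 0.0743 without the 4 libraries). The H82 call was lost with quantile normalization (0.0662) and without treated H82 replicate 1 (0.0626) or 2 (0.0547) or control H82 replicate 3 (0.0833). RGMA, a BMP coreceptor, was higher in treated H211 (18.8 ± 0.27 treated, 13.9 ± 1.097 control; log2 0.41, adjusted p = 0.0067), a call lost with a pseudocount of 0.1 (0.275) and without the 4 libraries (0.119).

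Among 9 tested antagonists outside the cell, NOG (noggin) was higher in treated H82 (22.8 ± 0.68 treated, 14.8 ± 0.79 control; log2 0.59, adjusted p = 9.68e-05), while TWSG1, which binds BMPs, was lower (11.0 ± 0.30 treated, 15.1 ± 0.14 control; log2 -0.43, adjusted p = 7.51e-04). NBL1, of the DAN family of BMP antagonists, was lower with the drug in both lines, at 10.5 ± 0.047 in treated and 15.6 ± 0.63 in control H82 (log2 -0.53, adjusted p = 1.59e-05) and at 18.3 ± 0.88 in treated and 30.0 ± 1.23 in control H211 (log2 -0.68, adjusted p = 7.40e-06). TOB1, an antiproliferative protein that binds SMADs, was higher in treated H82 (35.0 ± 1.43 treated, 18.5 ± 0.49 control; log2 0.88, adjusted p = 1.31e-07) and slightly lower in treated H211 (44.0 ± 1.21 treated, 48.9 ± 1.59 control; log2 -0.15, adjusted p = 0.043), a call lost in 9 of the 12 fits that left out a library (0.0513 to 0.144) and without the 4 libraries (0.392), and the difference between the responses was called (-1.03, adjusted p = 1.03e-06). SMURF1, a ubiquitin ligase for SMADs, was lower in treated H211 (6.05 ± 0.55 treated, 8.11 ± 1.11 control; log2 -0.37, adjusted p = 0.03; up to 0.441 under other settings).

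Of 8 other targets of BMP signalling tested, 3 were higher and 3 lower in H82 (19.1% and 23.9% of all genes), and 2 higher and 1 lower in H211 (8.95% and 9.61% of all genes). The 3 higher in H82 include HAMP, which reached 1 in the treated H82 libraries alone. It passed the filter only through them, so its part in the count supports nothing. HEY1, a hairy-related repressor, was higher in treated H211 (8.43 ± 0.19 treated, 3.38 ± 0.19 control; log2 1.11, adjusted p = 2.58e-06) and in treated H82 (3.67 ± 0.21 treated, 2.96 ± 0.23 control; log2 0.24, adjusted p = 0.0253), and the response was larger in H211 (difference 0.87, adjusted p = 1.43e-04). The H82 call was lost in a fit of H82 alone (0.0852), without the 4 libraries (0.0593), and without treated H82 replicate 1 or 2 or control H82 replicate 1 or 3 (0.0738 to 0.08). DLX5, a homeobox factor, was higher in treated H82 (16.4 ± 0.62 treated, 9.58 ± 1.11 control; log2 0.72, adjusted p = 0.0189), but its adjusted p was 0.0517 without treated H82 replicate 3, 0.0558 and 0.0578 without control H82 replicates 1 and 3, and 0.0661 with a pseudocount of 0.1. ATOH8, a bHLH factor, and SOSTDC1, an antagonist that binds BMPs outside the cell, were under the level set for naming genes and are given after their values were seen: in H211 ATOH8 was at 3.50 ± 0.14 treated and 0.669 ± 0.42 control (log2 1.46, adjusted p = 3.98e-05), and SOSTDC1 at 3.90 ± 0.23 treated and 0.361 ± 0.11 control (a log2 difference of 1.85). SOSTDC1 reached 1 in the 3 treated H211 libraries alone and passed the filter only through them, so its rise is a description with no test.

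**Figure D5:**
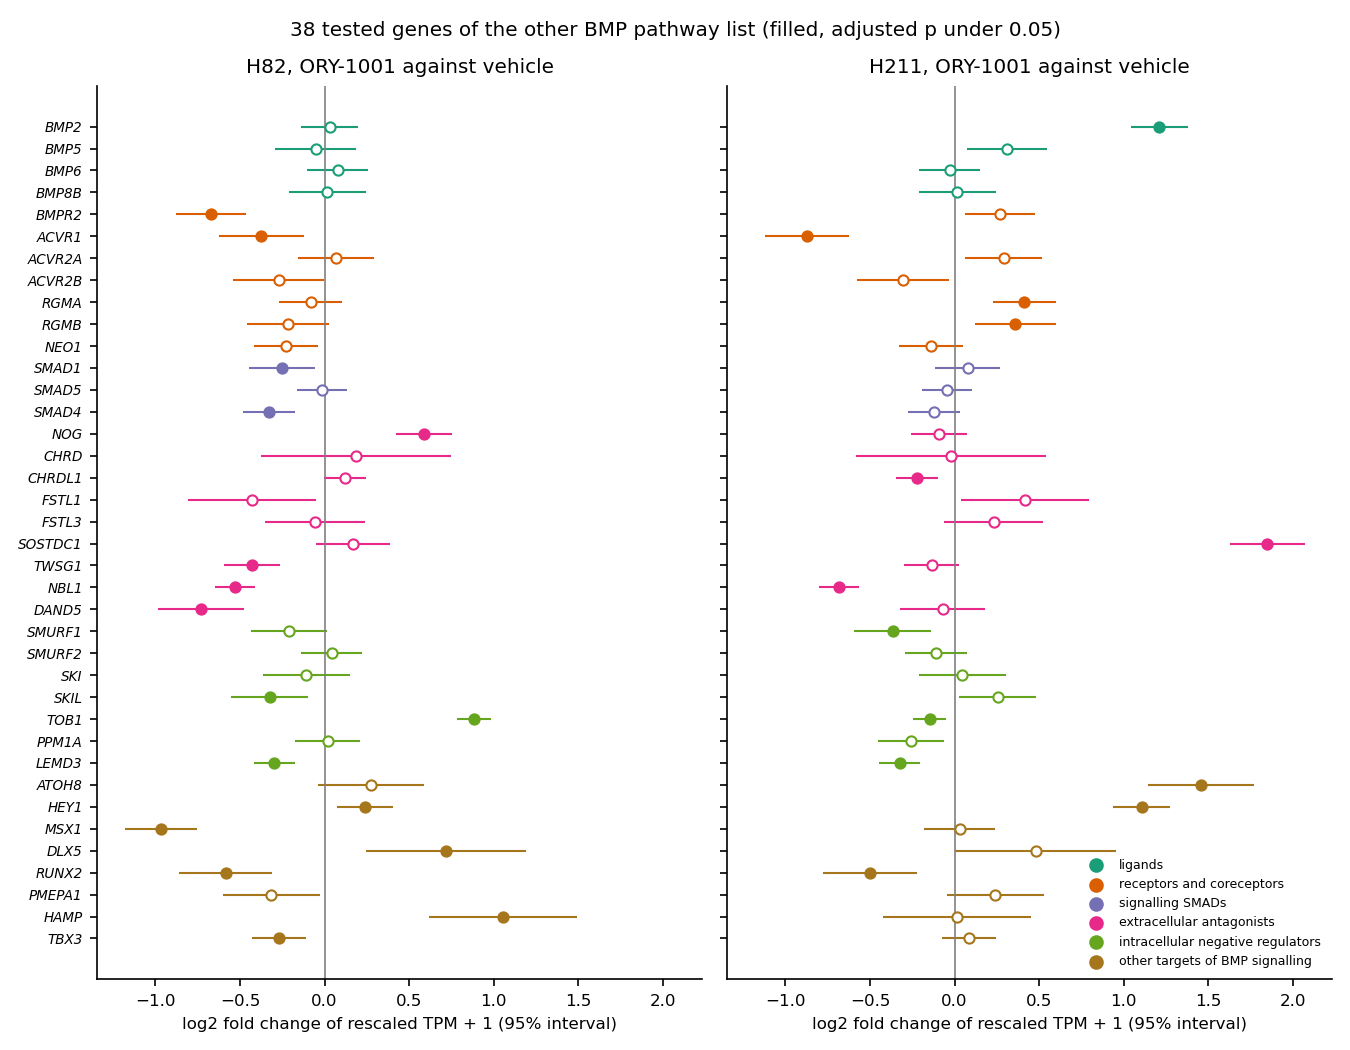
Log2 fold change (ORY-1001 over control) with its 95% interval for the 38 other pathway genes tested, in H82 and H211, coloured by role; filled points were called at an adjusted p under 0.05. In H211 ATOH8, BMP2 and HEY1 stand on the higher side, at 1.46, 1.21 and 1.11, as does SOSTDC1 (1.85), which passed the filter only through treated H211.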

How the data were processed

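Oligo(dT)-enriched mRNA was sequenced as paired ends on an Illumina HiSeq after NEBNext Ultra II library preparation and demultiplexed with bcl2fastq 2.17, per the labels' protocols. The submitters' processing notes name R 4.0.4, STAR 2.5.2b, Salmon 1.1.0, sleuth 0.30.0, DESeq2, Trimmomatic 0.36 and featureCounts (Subread 1.5.2), with build hg38 and without their roles. The authors deposited a signal that is TPM apparently rescaled between libraries (56508 symbols, 24415 at 0 in all 12 libraries); tests planned for TPM were used for it. Its depth is unknown, so no counting interval is given.

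Symbols that reached 1 in 3 or more libraries entered the tests (15456). A model of 4 group means on log2(value + 1) over the 12 libraries was fitted in R 4.3.3 by limma 3.58.1 (moderated variance with an intensity trend, two-sided, Benjamini-Hochberg over all genes kept, called at an adjusted p under 0.05). Log2 fold changes of low genes are understated on this scale, and folds are ratios of group means. Sums and ratios were tested with exact permutation tests. The fit was tried on simulated data with independent errors and with changes in treated H82 only. That setting does not cover replicates that are not independent or libraries apart in blood transcripts. The members and gene lists were chosen with earlier results of these data known. Other pathway genes were named where called with a higher group mean that reached 5, up to 3 largest rises and 3 falls per line; E proteins and the 3 genes nearest to each ID gene were always named. The alternatives changed pseudocount, filter, scaling, variance prior, weights, block, groups fitted and libraries. The 2 alternatives without the 4 libraries apart in blood transcripts and with totals without mitochondrial genes were chosen after seeing the data. Gene positions come from GENCODE release 29 on GRCh38, and promoter windows from RefSeq on GRCh38.p14.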

Additional observations from a re-analysis of the deposited data

Results flagged for a closer look

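For 6 of the 10 members the response to ORY-1001 differed between the lines by the test of the difference itself (H211 response minus H82 response, log2 scale, limma with Benjamini-Hochberg adjustment over all genes), where 32.1% of all genes tested were called. The difference was 2.85 for ID4 (adjusted p = 4.98e-09), -1.14 for ID1 (2.34e-06), -0.31 for ID2 (0.0402), -0.27 for ID3 (0.0136), 0.58 for SMAD7 (0.00951) and -0.72 for BAMBI (0.0145). ID4 was lower in 3 of 3 treated H82 libraries than in any control H82 library and higher in 3 of 3 treated H211 libraries than in any control H211 library. ID1, ID2 and ID3 were higher with the drug in 3 of 3 libraries of each line, so their differences are of size and not of direction. SMAD7 was under 1 in all H82 libraries and passed the filter only through H211, so its part in this count is a description. Its fold change in H82 is understated on the log2(value + 1) scale. Without the 4 libraries apart in blood transcripts 3 members were called, ID1, ID3 and ID4, and SMAD7 (0.104) and BAMBI (0.0913) were not. For ID2 the difference lost its call in 9 of the 12 fits that left out a library.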

How the results depend on the processing

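For single members over the 5 contrasts, among fits without 1 library 562 values kept their direction and side of the threshold, 9 lost a call, 8 gained one and 6 changed sign, and among the other settings the counts were 638, 11, 13 and 4. Without the 4 libraries apart in blood transcripts, which leaves 8 libraries and 1 control library of H211, called members numbered 3 in H211 and 3 in the difference between the lines, called pathway genes 4 and 9, and all called genes 559 and 2899; fewer libraries entered that fit. Leaving out 1 library at a time gave 8 to 14 called pathway genes in H211, with 8 without treated H211 replicate 1 and 8 without treated H211 replicate 3, 6 to 7 called members in either line, and 1960 to 3042 called genes in H211. The values that changed sign were not called, and the cause was not tested. They were SMAD7 in H82 (-0.025 to 0.13 without 1 library) and BMP4 in H82 (-0.076 to 0.019 without 1 library). In H211 SMAD9 changed sign (0.0047 without the 4 libraries, -0.22 to 0.077 without 1 library). In the difference between the lines they were SMAD6 (0.22 with a pseudocount of 0.1) and BMPR1A (-0.011 with equal totals, -0.0025 with totals without mitochondrial genes, and -0.068 to 0.15 without 1 library). TCF3, an E protein outside these counts, also changed sign. In H82 it had -0.048 with quantile normalization, -0.0103 without the 4 libraries, and -0.032 to 0.074 without 1 library. In H211 it had 0.040 without the 4 libraries. BMP4 in H211 gained a call with a pseudocount of 5, median-of-ratios factors, no variance trend, library weights and without control H211 replicate 3. It passed the filter only through treated H211, so these calls support nothing.

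Same-numbered libraries did not deviate together across groups (correlations from -0.08 to 0.04). This shows no broad shared deviation by number, but cannot settle whether libraries were handled in numbered sets. A replicate block gave 6 called members in H82, 6 in H211 and 7 in the difference between the lines, where SMAD6 gained its call (0.0468), and 2497 called genes in H211 against 2868 without it. BMP4 did not pass the filter, and gave no value, without the 4 libraries or in the 3 fits that each left out a treated H211 library, nor did members that a filter of at least 5 in 3 libraries removed.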
